A study of Mus musculus with 18 samples.

Results

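The respiratory chain of the mitochondrial inner membrane is built from complexes I to IV, which pass electrons to oxygen and, with the exception of complex II, pump protons. Complex V, the ATP synthase, uses the proton gradient to make ATP, and it is treated here with the chain. Most subunits are encoded in the nucleus and a few in mitochondrial DNA. Several subunits of complex IV, cytochrome c oxidase, exist as a common isoform and a second isoform known from muscle, testis or cells at low oxygen.

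The genes were chosen by name alone: symbols of the Ndufa, Ndufb, Ndufc, Ndufs and Ndufv series (complex I), Sdha to Sdhd (complex II), Uqcr (complex III), Cox4 to Cox8 (complex IV) and Atp5 (complex V). They were 85 of the 23228 genes in the expression table, of which 37 belonged by name to complex I, 4 to complex II, 8 to complex III, 19 to complex IV and 17 to complex V. The names also caught 3 genes that encode no subunit: Cox4nb, a subunit of the endoplasmic reticulum membrane complex also called Emc8, and Atp5s and Atp5sl, which RefSeq lists as Dmac2l and Dmac2. Ndufa4 and Ndufa4l2 were counted with complex I by name, although NDUFA4 is now placed in complex IV. No gene of mitochondrial DNA stood in the table under the 26 symbols looked for, so all levels are of nuclear transcripts.

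The study asked how the transcription factor Ptf1a acts in neural tube and in pancreas, and the RNA samples came from ICR mice labelled wild type. RNA was sequenced from GFP-positive cells sorted out of E12.5 neural tubes, whose transgene 2.3Ptf1a-GFP joins the 2.3 kb autoregulatory Ptf1a enhancer to a beta-globin basal promoter and GFP, and from whole E15.5 pancreas, for which the labels name no transgene. Tissue, stage, sorting, RNA extraction and, for part of the pancreas libraries, the preparation kit differ between these samples and cannot be told apart. There was 1 value per gene and tissue, with no replicate values, so no SD, test or p-value is given anywhere and every difference describes these samples only. The tissues carried their own markers: 8 of 8 neural markers were at least 4 times higher in the neural tube cells, and 8 of 8 pancreas markers were at least 4 times higher in pancreas.

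Of the 81 members with 1 FPKM or more in at least a single sample, 70 were lower in neural tube cells than in pancreas and 11 were higher, as deposited. Cox7a1, Ndufs5, Uqcrb and Atp5j differed by more than 4 times. Levels are FPKM, a fragment density that accounts for transcript length and for the mapped fragments of the sample, so levels of different genes compare per length. Differences are log2(FPKM + 1) in neural tube minus pancreas, so that low genes look closer than they are, and negative values mean lower in neural tube. A gene counted as higher in a tissue when the gap on that scale was 2 times or more and the higher sample had at least 5 FPKM, and as similar when 5 FPKM was reached in both samples with a gap under 2 times. Of the 85 members, 80 reached 5 FPKM in either sample, and of these 3 were higher in neural tube, 37 were higher in pancreas and 40 were similar. Among all 10744 genes at that level, 23.2% were higher in neural tube, 25.0% were higher in pancreas and 44.8% were similar, whereas 46.25% of the members were higher in pancreas. Of the 76 members at 5 FPKM in both samples, 40 were similar, against 68.4% of all 7037 such genes. With a limit of 4 times, 0 members stood higher in neural tube cells and 4 in pancreas, against 10.3% and 11.9% of all genes. Without the 3 genes that encode no subunit, 2 favoured neural tube, 36 pancreas and 39 were similar.

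The median difference of these 81 members was -0.87, against -0.07 for the 14303 genes of the table at that level. In sums, the members held 11125 FPKM in neural tube cells and 20056 FPKM in pancreas, or 2.44% and 2.85% of each sample's total of 455927 and 704172 FPKM. Because these totals differ, the scaling matters. Members higher in neural tube made up 7.50% of the members' calls as deposited, 18.2% after scaling to housekeeping genes and 33.3% after scaling to equal totals, against 48.1%, 64.1% and 73.1% of the calls over all genes. Scaled to housekeeping genes, 4 of 78 members (5.13%) were higher in neural tube, against 32.3% of all genes, and 18 (23.1%) in pancreas, against 18.1%. That factor is the median ratio of 22 genes, among them Sdha, itself a member. As deposited, 1 of the 22 was higher in neural tube, 6 were higher in pancreas, 3 of these by 4 times or more, and 15 were similar. With equal totals, 6 of 78 members (7.69%) were higher in neural tube, against 39.4% of all genes, and 12 (15.4%) in pancreas, against 14.5%, so the share higher in pancreas was then near that of all genes. Those scalings moved the median of all genes at 1 FPKM in both samples, 0.02 as deposited, to 0.34 and 0.55. Of the 80 members, 17 had a near-identical coding copy elsewhere in the genome, with a median difference of -1.28, and 17 had exons that overlap another gene, Atp5j, Atp5d and Uqcrb among them, with a median of -1.20. The 51 with neither had a median of -0.59, and whether reads were counted by strand is not given in the sources used here. In bulk RNA, fewer cells of a type and less RNA per cell cannot be told apart.

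**Figure D1:**
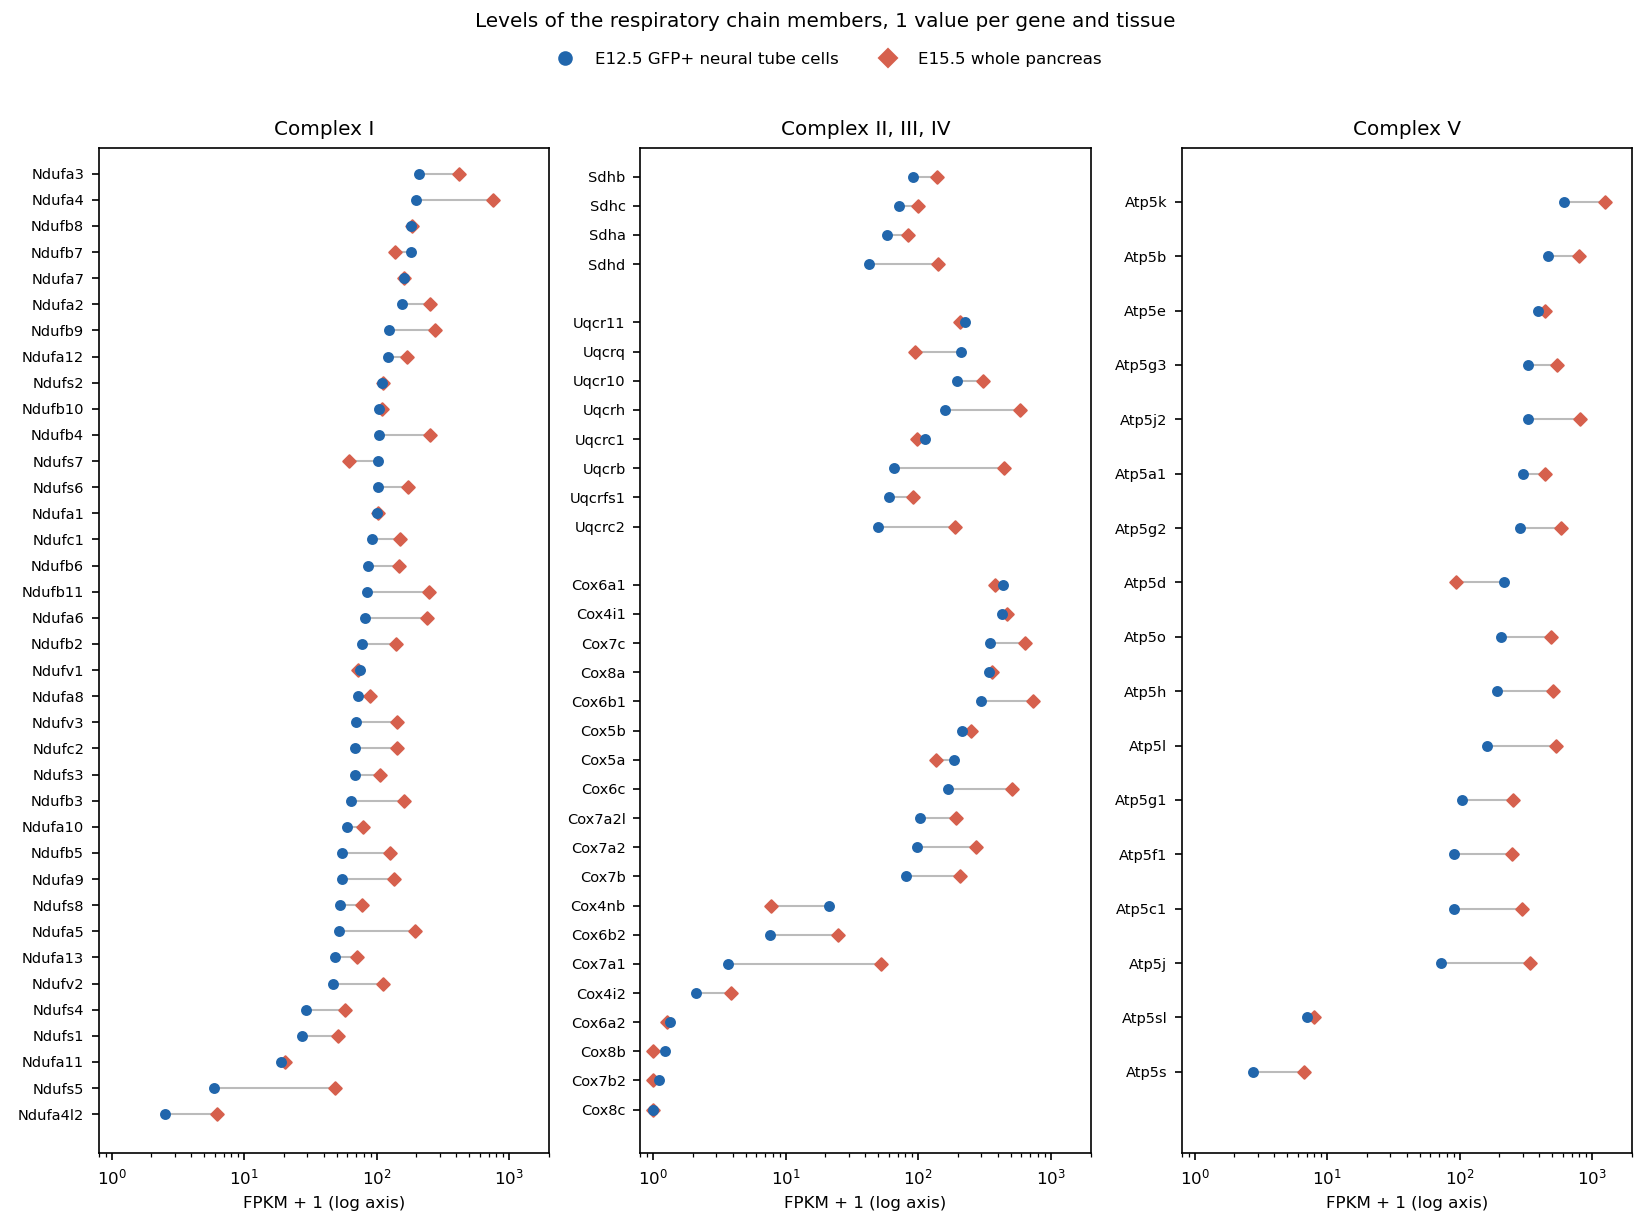
Level of each member as FPKM + 1 on a log axis, with 1 blue circle for E12.5 GFP-positive neural tube cells and 1 red diamond for E15.5 whole pancreas per gene, sorted within a complex by the neural tube level. Most red diamonds lie to the right of the blue circles, with Uqcrq, Atp5d and Cox4nb as the members at least 2 times higher in neural tube.

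The members kept much of their order of abundance. Between the tissues, log2(FPKM + 1) of the 80 members that reached 5 FPKM had a Pearson's r of 0.85 and a Spearman's rho of 0.76, and across all 10744 such genes they were 0.42 and 0.41. The filter asked for 5 FPKM in either sample. In both samples it was reached by 76 of the 80 members, but by only 7037 of the 10744 genes. The correlations of members and of all genes therefore do not compare directly. These are correlations across genes of the same 2 samples, given as a description. The most abundant member in both was Atp5k, the small e subunit of the membrane part of complex V, at 611 FPKM in neural tube cells and 1252 FPKM in pancreas.

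Complex I, the NADH dehydrogenase, had 0 of 37 members higher in neural tube, 16 higher in pancreas and 21 similar, with a median difference of -0.79. Its 7 nuclear core subunits, which carry the flavin and the iron-sulphur clusters or bind quinone, were mostly similar. Of these 7, only Ndufv2 passed the limit of 2 times, at 45.5 FPKM in neural tube cells and 110.1 FPKM in pancreas. Ndufs7, at 101.0 FPKM in neural tube cells and 61.4 FPKM in pancreas, had the largest difference toward neural tube in the complex, 0.71. Summed, the core subunits stood at 474 FPKM in neural tube cells and 583 FPKM in pancreas, 1.23 times higher in pancreas. The 28 other subunits, a set that leaves out Ndufa4 and Ndufa4l2, stood at 2538 and 4409 FPKM, 1.74 times higher in pancreas. The total over all genes was 1.54 times higher in pancreas. As a share of that total, the core was lower in pancreas, at 0.104% in neural tube cells and 0.0828% in pancreas. The other subunits held 0.557% and 0.626%. The median differences of the core and of the other subunits were -0.55 and -0.83 as deposited, and -0.37 and -0.43 once corrected for transcript length and GC content.

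Ndufs5 stood out among the accessory subunits. It had 4.90 FPKM in neural tube cells and 47.9 FPKM in pancreas, a difference of -3.05 and the largest of the complex. In neural tube cells it ranked 8930 of all genes, while every other complex I member except Ndufa4l2 was at 18.1 FPKM or more. Its coding sequence has 1 near-identical copy elsewhere in the genome, and the part of this copy in the low value was not tested.

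Ndufa4, Ndufa5, Ndufa6 and Ndufb11 followed, with pancreas levels 2.98 to 3.81 times those of neural tube cells. Ndufa4 had 197 FPKM in neural tube cells and 748 FPKM in pancreas, the highest level of any Nduf gene there, and Ndufa5 had 51.0 and 194 FPKM. Ndufa6 had 80.2 FPKM in neural tube cells and 240.3 FPKM in pancreas, and Ndufb11 had 83.1 and 247 FPKM. The remaining 11 calls, Ndufa3, Ndufa4l2, Ndufa9, Ndufb3, Ndufb4, Ndufb5, Ndufb9, Ndufc2, Ndufs4, Ndufv2 and Ndufv3, had differences of -1.32 or nearer to the limit, and Ndufa3, Ndufs4 and Ndufv3 sat on the limit itself. Ndufa3 was the most abundant complex I gene in neural tube cells at 208 FPKM, against 418 FPKM in pancreas. At the other end, Ndufb7 had 180.2 FPKM in neural tube cells and 136 FPKM in pancreas, and Ndufa7 had 159.4 and 159.1 FPKM.

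Complex II, succinate dehydrogenase, also works in the citric acid cycle. It had 1 of 4 members higher in pancreas and 3 similar, with a median difference of -0.56 that turned to 0.06 with equal totals. Sdhd, a membrane anchor, had 41.8 FPKM in neural tube cells and 139 FPKM in pancreas, a difference of -1.71. The flavoprotein gene Sdha had 57.3 FPKM in neural tube cells and 82.98 FPKM in pancreas, the iron-sulphur gene Sdhb had 90.8 and 137 FPKM, and the other anchor gene Sdhc had 70.4 and 98.2 FPKM. The 2 anchors thus differed between tissues by unequal amounts.

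Complex III, cytochrome bc1, was split. Its median difference was -0.62 and turned to 0.0038 with equal totals, with 1 of 8 members higher in neural tube, 3 higher in pancreas and 4 similar. Uqcrb, a small subunit near the quinone site, had 65.3 FPKM in neural tube cells and 439.99 FPKM in pancreas, a difference of -2.73. Uqcrc2, a core protein, had 49.1 and 188 FPKM in neural tube cells and pancreas, and the hinge protein gene Uqcrh had 158 and 584 FPKM. Uqcrq, a small membrane subunit, ran the other way, with 209 FPKM in neural tube cells and 93.1 FPKM in pancreas, a difference of 1.16 that stayed between 1.05 and 1.78 under each alternative run for it. The partner core protein gene Uqcrc1 was similar, at 112 FPKM in neural tube cells and 97.5 FPKM in pancreas, as was the Rieske protein gene Uqcrfs1, at 59.6 and 89.8 FPKM. Uqcrb has 3 near-identical copies in the genome, and its exons overlap an antisense gene model.

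Complex V had the lowest median difference of the 5 complexes as deposited, -1.24, but not without members that have near-identical copies or exon overlaps, where it was -0.74 and complex IV had -0.88. As deposited it had 1 of 17 members higher in neural tube, 11 higher in pancreas and 5 similar. It held 34.5% of the members' summed FPKM in neural tube cells and 37.9% in pancreas, while complex IV held 24.6% and 21.1%. The parts of the enzyme differed as deposited. Of the 5 subunits of the catalytic F1 head, 1 was higher in neural tube, 1 was higher in pancreas and 3 were similar, whereas all 4 subunits of the peripheral stalk, which holds the head still, and all 3 other membrane subunits listed were higher in pancreas as deposited. With equal totals 1 of the 4, Atp5j, and 1 of the 3, Atp5l, remained past the limit, and with the length and GC correction 2 of the 4, Atp5f1 and Atp5j, and 0 of the 3 did. The head kept 1 call in each direction with equal totals and had 0 calls with the correction. Median differences of head, stalk and other membrane subunits were -0.53, -1.42 and -1.31 as deposited. Corrected for length and GC content they were closer together, at -0.58, -0.96 and -0.80.

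Summed, the F1 head stood at 1465 FPKM in neural tube cells and 2052 FPKM in pancreas, 1.40 times higher in pancreas. The total over all genes was 1.54 times higher in pancreas. As a share of that total, the head was lower in pancreas, at 0.321% in neural tube cells and 0.291% in pancreas. The peripheral stalk stood at 558 and 1575 FPKM, 2.82 times higher in pancreas, and the other membrane subunits at 1097 and 2593 FPKM, 2.36 times higher. Of these genes Atp5h, Atp5l, Atp5o and Atp5k had near-identical copies elsewhere in the genome and the 5 head genes had 0, and the part of the copies was not tested.

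Within the head, Atp5d, the delta subunit of the central stalk, was higher in neural tube, with 215 FPKM against 92.5 FPKM in pancreas, a difference of 1.21 that was 0.44 once corrected for the length and GC content of transcripts. The gamma subunit gene Atp5c1 went the other way, with 89.4 FPKM in neural tube cells and 292 FPKM in pancreas. The main catalytic pair was similar: Atp5a1 had 302 FPKM in neural tube cells and 437 FPKM in pancreas, and Atp5b had 466 and 791 FPKM. Of the stalk, Atp5j, coupling factor 6, had 70.9 and 336 FPKM in neural tube cells and pancreas, a difference of -2.23 and the largest of the complex. Atp5f1 had 89.5 and 247 FPKM, Atp5h had 192 and 503 FPKM, and Atp5o, which connects the stalk to the head, had 206 and 489 FPKM. Of the membrane subunits, Atp5l had 161 FPKM in neural tube cells and 531 FPKM in pancreas, and Atp5j2 had 325 and 809 FPKM.

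The proton-carrying c-ring can be made from 3 genes that encode the same mature protein. Their shares were close in both tissues: Atp5g3 made up 45.8% of the 715 FPKM in neural tube cells and 39.2% of the 1377 FPKM in pancreas, Atp5g2 39.8% and 42.4%, and Atp5g1 14.3% and 18.4%. Atp5g1, at 102 and 253 FPKM, and Atp5g2, at 285 and 583 FPKM, passed the limit toward pancreas. Atp5s, the lowest gene caught by the Atp5 name, had 1.77 and 5.64 FPKM.

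Complex IV had 1 of 19 members higher in neural tube, 6 higher in pancreas and 7 similar, with a median difference of -0.89. The gene higher in neural tube was Cox4nb, with 20.2 FPKM against 6.78 FPKM in pancreas, a call lost with the length and GC correction at 0.87, so 0 of the 18 subunit genes of the complex were. Cox4nb and Cox4i1 lie head to head on chromosome 8 in mm9, from 123177814 to 123192012 on the minus strand and from 123192190 to 123198109 on the plus strand, with 177 bases between them. Cox4i1 differed by -0.11, while Cox4nb differed by 1.45. Cox6c had 168 FPKM in neural tube cells and 513 FPKM in pancreas, Cox7b had 79.7 and 207 FPKM, and Cox6b1 had 299 and 731 FPKM. Cox5a had 185 FPKM in neural tube cells and 136 FPKM in pancreas, the largest difference toward neural tube among the subunits, 0.44.

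**Figure D2:**
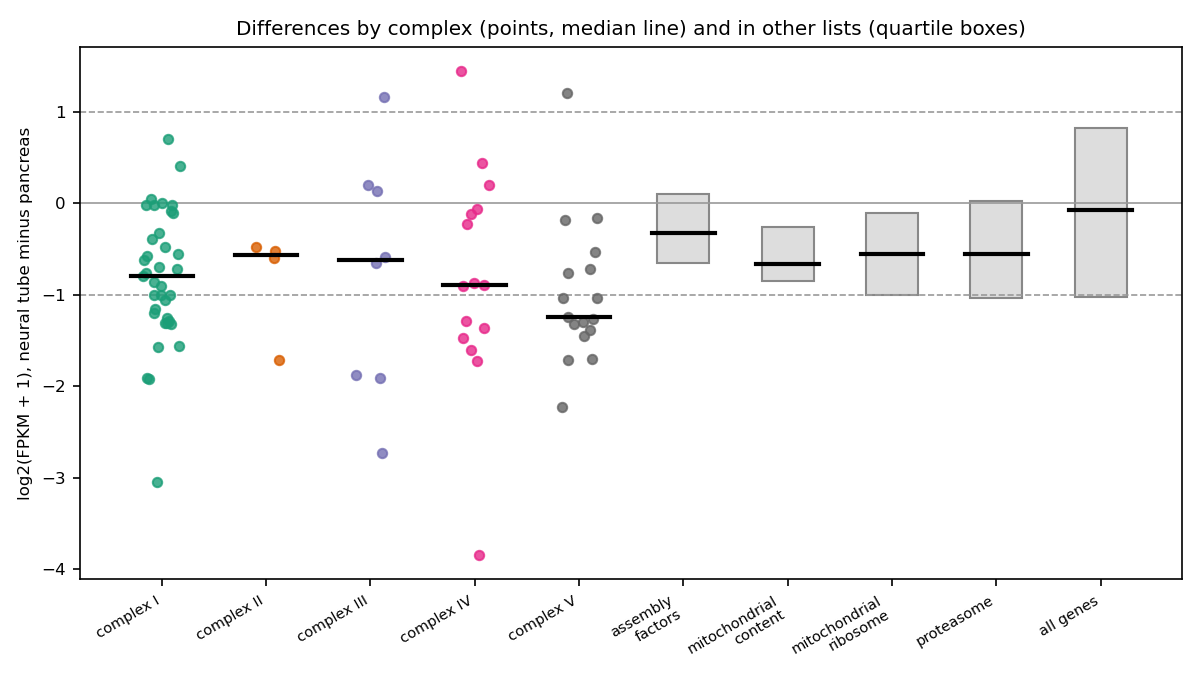
Differences of members at 1 FPKM or more by complex as points with a median line, and the quartiles and median of other lists as grey boxes, in log2(FPKM + 1), neural tube minus pancreas. Dashed lines mark 2 times. As deposited, complex V has the lowest median, -1.24, against -0.07 for all genes.

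Of the 3 isoform pairs of complex IV, the restricted isoform reached 5 FPKM in 1, Cox7a1 in pancreas, and was below that in both tissues in the other two. Cox7a1, the heart and skeletal muscle isoform of subunit 7a, had 2.65 FPKM in neural tube cells and 51.3 FPKM in pancreas, a difference of -3.84 and the largest of all members, while its common partner Cox7a2 had 97.2 and 272 FPKM. Cox7a1 thus made up 2.66% of the pair in neural tube cells and 15.9% in pancreas, a share 5.97 times higher in pancreas, and such a share does not change when a sample is rescaled. The Cox4i2 and Cox6a2 shares were below 1% in both tissues. The Cox7a1 difference kept the same sign and stayed past 2 times under each alternative run for it, from -4.22 to -2.88. At their annotated lengths, the values of Cox7a1 correspond to about 23.3 fragments in neural tube cells and 762 in pancreas.

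Cox4i2, the isoform of subunit 4 known from lung and from cells at low oxygen, had 1.10 FPKM in neural tube cells and 2.84 FPKM in pancreas, and its common partner Cox4i1 had 429.7 and 465 FPKM. Its share of the pair was 0.256% in neural tube cells and 0.608% in pancreas, and it stayed below the 5 FPKM needed for a call. Cox6a2, the muscle isoform of subunit 6a, had 0.332 and 0.270 FPKM, or about 5.28 and 7.26 fragments, and made up 0.0753% of the pair in neural tube cells and 0.0708% in pancreas. Its partner Cox6a1 had 439.8 FPKM in neural tube cells and 382 FPKM in pancreas. Both of these common isoforms were similar, with differences of -0.11 and 0.20, and Cox7a2 passed the limit as deposited at -1.48, but not with equal totals, at -0.85, or with the length and GC correction, at -0.78.

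Of the other restricted isoforms, Cox6b2 and Ndufa4l2 were higher in pancreas, with differences of -1.73 and -1.32, and the rest were below 1 FPKM in both tissues. Cox6b2, the testis isoform of subunit 6b, had 6.56 FPKM in neural tube cells and 24.03 FPKM in pancreas, and its share of the 6b pair was 2.15% and 3.18%. Ndufa4l2, a hypoxia-induced relative of Ndufa4, had 1.51 and 5.28 FPKM and 0.763% and 0.701% of its pair. Cox8b, the muscle isoform of subunit 8, had 0.235 FPKM in neural tube cells and was listed at 0 in pancreas, Cox7b2 had 0.111 FPKM and was listed at 0 in pancreas, and Cox8c was listed at 0 in both. The common Cox8a had 343.8 FPKM in neural tube cells and 359.7 FPKM in pancreas. The coding sequences of the 3 main pairs were 70.5% identical for Cox4i1 and Cox4i2, 66.6% for Cox6a1 and Cox6a2 and 67.4% for Cox7a2 and Cox7a1 over aligned bases, and none of these 6 genes had a near-identical copy elsewhere.

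**Figure D3:**
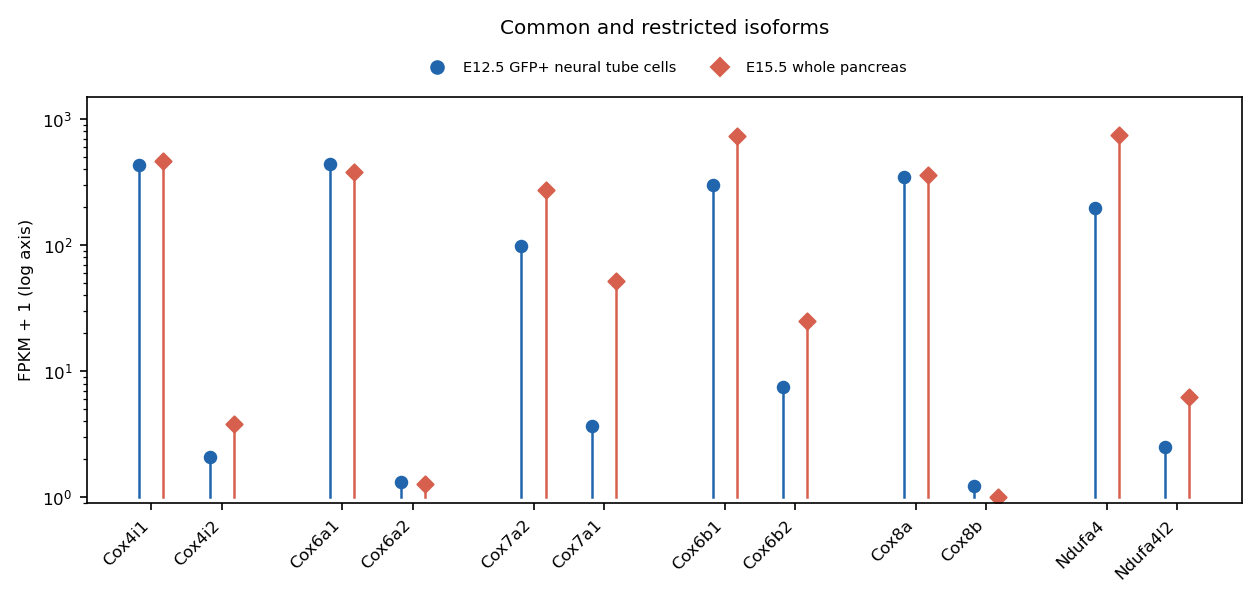
Levels of common and restricted isoforms as FPKM + 1 on a log axis, with neural tube cells as blue circles left of pancreas as red diamonds, 1 value each. Cox7a1 stands at 2.65 FPKM in neural tube cells and 51.3 FPKM in pancreas, while Cox6a2 and Cox8b are near the floor in both.

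Markers of other cell types were read beside these isoforms. Of 14 pericyte and smooth muscle markers, 10 reached 5 FPKM, of which 1 was higher in neural tube and 9 in pancreas. The 14 markers summed to 52.6 FPKM in neural tube cells and 214 FPKM in pancreas. The marker higher in neural tube was Notch3, with 29.2 FPKM in neural tube cells and 4.52 FPKM in pancreas. Vtn had the highest pancreas level of the list, with 1.80 and 66.1 FPKM. Kcnj8 had 0.119 FPKM in neural tube cells and 14.7 FPKM in pancreas, and Rgs5 had 0.321 and 10.6 FPKM. Higd1b was listed at 0 in neural tube cells and had 0.674 FPKM in pancreas, below the 5 FPKM needed for a call. The part of these cells in the pancreas levels of Cox7a1, Cox4i2 and Ndufa4l2 was not tested. Of 19 striated muscle markers, only 3 reached 5 FPKM in either sample, so the others could not be called. Of these 3, 2 were higher in neural tube, Acta1 and Actc1, and 0 in pancreas. Over the 14 at 1 FPKM or more, 9 leaned toward neural tube and 5 toward pancreas. Myh8 leaned most toward pancreas, at 0.151 FPKM in neural tube cells and 4.62 FPKM in pancreas. The list sums were 56.5 and 35.9 FPKM. Of 8 brown adipocyte markers, only Fabp4, at 0 and 68.0 FPKM, reached 5 FPKM, and it was higher in pancreas. Ucp1 was listed at 0 in neural tube cells and had 0.0264 FPKM in pancreas, and Adipoq was listed at 0 in both. The list summed to 4.95 FPKM in neural tube cells and 72.3 FPKM in pancreas.

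The 250 bases before the RefSeq start (GRCm38.p6) are shown for the pair with the member that differed most, Cox7a1 (chr7:30183921-30184170, plus strand) and Cox7a2 (chr9:79759854-79760103, minus strand), and for Cox6a1 (chr5:115348959-115349208, minus strand), a common isoform whose window holds the motif of NRF1, a factor known for nuclear respiratory genes. Capitals mark matches on either strand to the NRF1 motif (GCGC, any base, TGCGC), to CCGGAAGT (ETS factors such as GABPA) or to CCAAT.
Cox7a1: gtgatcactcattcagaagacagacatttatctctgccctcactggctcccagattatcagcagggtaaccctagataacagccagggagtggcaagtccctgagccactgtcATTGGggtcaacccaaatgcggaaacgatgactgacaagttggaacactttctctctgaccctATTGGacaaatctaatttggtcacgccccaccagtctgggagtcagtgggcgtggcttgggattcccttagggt
Cox7a2: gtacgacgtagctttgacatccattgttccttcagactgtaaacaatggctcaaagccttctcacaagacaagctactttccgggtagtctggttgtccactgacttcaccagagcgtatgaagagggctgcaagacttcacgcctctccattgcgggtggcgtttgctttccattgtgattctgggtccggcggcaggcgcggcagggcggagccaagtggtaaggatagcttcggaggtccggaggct
Cox6a1: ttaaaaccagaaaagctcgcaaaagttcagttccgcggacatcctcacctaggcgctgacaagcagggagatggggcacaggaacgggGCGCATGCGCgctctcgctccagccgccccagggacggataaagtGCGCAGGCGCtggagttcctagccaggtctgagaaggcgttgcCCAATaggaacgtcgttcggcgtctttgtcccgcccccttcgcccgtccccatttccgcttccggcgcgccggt
The Cox7a1 window held 2 CCAAT matches and the Cox7a2 window held 0 matches to the 3 motifs, while the Cox6a1 window held 2 NRF1 matches and 1 CCAAT match.

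Windows were found for 69 of the 85 members, with 75 starts. The NRF1 letters stood in 18.7% of them, against 3.74% of all 32851 windows, CCGGAAGT in 4.00% against 2.88%, and CCAAT in 42.7% against 33.8%. The median GC content of the windows was 56.0% for the members and 52.4% for all. The 13 genes with an NRF1 match were Atp5c1, Atp5g2, Atp5h, Atp5k, Cox6a1, Ndufa11, Ndufa5, Ndufa8, Ndufb4, Ndufs5, Ndufs6, Sdha and Sdhd. Of these, 0 were higher in neural tube, 8 were higher in pancreas and 5 were similar, with a median difference of -1.04. Of the 54 members at 5 FPKM without a match, 1 was higher in neural tube, 24 were higher in pancreas and 29 were similar, with a median of -0.83. Among all genes at 5 FPKM, 25.0% were higher in pancreas. A part of the motif in these differences was not tested.

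Differences between the tissues varied with the base composition of the transcripts. Members under 48% GC had a median difference of -1.29 (14 genes), those from 48 to 54% had -1.06 (37 genes), and those at 54% or more had -0.23 (29 genes). All genes at 5 FPKM showed the same order, with medians of -0.49, -0.02 and 0.54. Across the 80 members Pearson's r of the difference with GC content was 0.42 and Spearman's rho 0.49, and across 10197 genes with an annotated coding transcript they were 0.26 and 0.30. These are correlations across genes that share their libraries. The members lay below all genes in each of these ranges. Uqcrb, the member of complex III with the lowest GC content, 42.2%, had its largest difference toward pancreas, and Atp5d, at 61.1% GC the highest of complex V, had that complex's only difference past 2 times toward neural tube. Other members did not follow this order. Cox7a1 and Ndufs5, with the largest differences toward pancreas of all members, were at 54.4% and 53.4% GC. Uqcrq and Cox4nb, both higher in neural tube, were at 50.2% and 50.8% GC. Member transcripts were also short, with a median of 690.5 bases against 2249 for all these genes. Correcting differences for length and GC content left 1 of 80 members (1.25%) higher in neural tube, against 17.9% of all genes, with 15 (18.75%) higher in pancreas, against 21.3%, and 63 similar. The share of members higher in pancreas was then no larger than that of all genes. The corrected median difference of members at 1 FPKM or more was -0.48, against -0.08 for all genes with an annotated coding transcript.

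**Figure D4:**
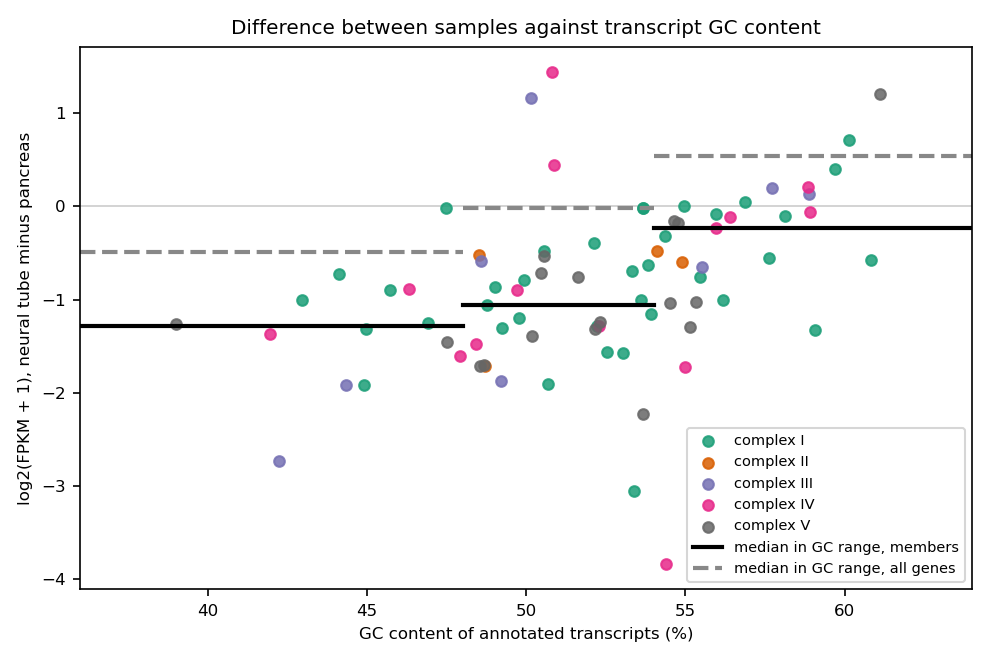
Difference of the 80 members that reached 5 FPKM, in log2(FPKM + 1), neural tube minus pancreas, against the GC content of their annotated transcripts, coloured by complex, with the median in 3 GC ranges for the members (black) and all genes (grey, dashed). The member medians run from -1.29 under 48% GC to -0.23 at 54% or more.

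Other genes of the pathway were read from lists. Of 33 assembly factors with a listed value, 31 reached 5 FPKM. Of these, 0 were higher in neural tube, against 23.2% of all genes, 1 (3.23%) was higher in pancreas, against 25.0%, and 25 were similar. The median difference of the assembly factors was -0.32. The factor past the limit was Nubpl, which helps insert iron-sulphur clusters in complex I, with 3.23 FPKM in neural tube cells and 10.9 FPKM in pancreas. The largest difference toward neural tube was that of Cox10, a heme a synthesis enzyme, with 9.16 and 4.96 FPKM. Among 11 electron carriers and subunits with other names, 10 reached 5 FPKM. Of these 10, 6 (60.0%) were higher in pancreas, against 25.0% of all genes, and 4 were similar. Etfa, of the electron transfer flavoprotein, had 16.7 FPKM in neural tube cells and 102.03 FPKM in pancreas, and the cytochrome c gene Cycs had 24.2 and 69.4 FPKM. Ndufab1, the acyl carrier subunit of complex I, had 79.5 FPKM in neural tube cells and 59.2 FPKM in pancreas and was similar. Cyc1, the cytochrome c1 gene of complex III, which the names did not catch, was also similar, at 142 and 131 FPKM.

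Of 19 regulators of mitochondrial gene expression in the table, 2 were higher in neural tube, 1 was higher in pancreas and 10 were similar, with a median difference of 0.35. Esrra, a nuclear receptor that activates respiratory genes, had 15.0 FPKM in neural tube cells and 3.54 FPKM in pancreas, and Polrmt, the mitochondrial RNA polymerase, had 12.3 and 4.57 FPKM. Tfb1m, which methylates mitochondrial ribosomal RNA, had 5.46 FPKM in neural tube cells and 15.0 FPKM in pancreas. Nrf1 itself was similar, at 19.0 and 11.4 FPKM, and the coactivator Ppargc1a was low in both, at 0.694 and 0.671 FPKM. A list of 17 genes was taken as a gauge of mitochondrial content, among them carrier, import and chaperone genes and citrate synthase. How well their RNA levels follow that content was not tested. Of the 17, 3 (17.6%) were higher in pancreas, against 25.0% of all genes, and 14 were similar, with a median of -0.67. The chaperonin gene Hspe1 had the largest difference toward pancreas, with 136 FPKM in neural tube cells and 446 FPKM in pancreas. The import pore gene Tomm40 had the largest difference toward neural tube, with 72.7 and 38.7 FPKM. The citrate synthase gene Cs was similar, at 87.8 FPKM in neural tube cells and 74.2 FPKM in pancreas.

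**Figure D5:**
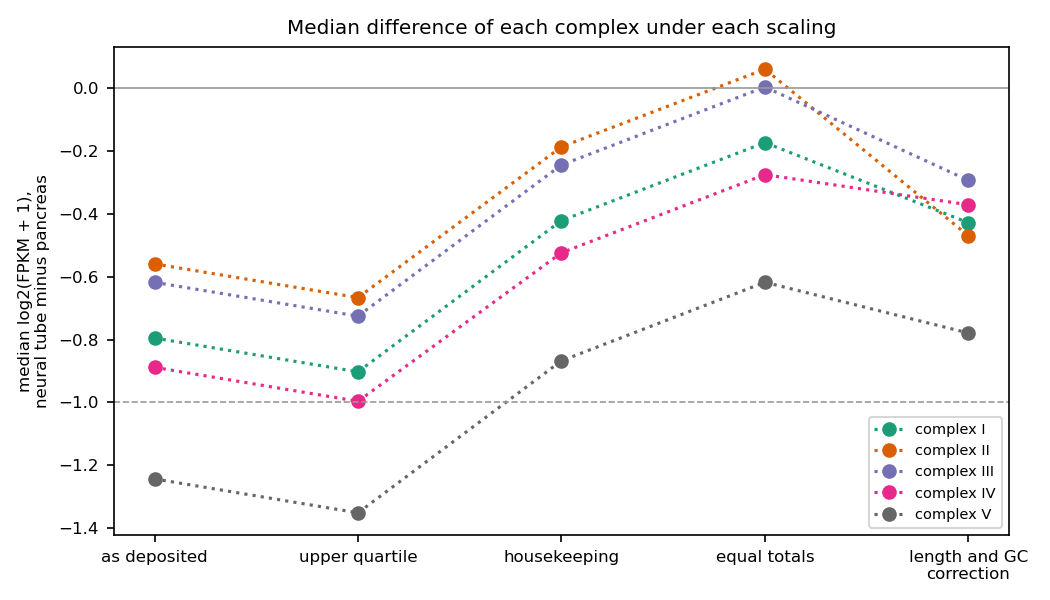
Median difference of each complex in log2(FPKM + 1), neural tube minus pancreas, as deposited, under the rescalings and with the length and GC correction. Complex V is lowest in each of these, from -1.35 to -0.62, while complexes II and III turn to 0.06 and 0.0038 with equal totals.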

How the data were processed

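RNA was measured by sequencing in 2 of the 18 samples of the series, and the remaining 16 are not analysed here. The authors deposited FPKM values, 1 column per tissue, and the labels name 2 libraries for each, so a column was read as a pooled value. Per the submitters' processing notes the tools were CASAVA, TopHat, TopHat2 2.0.4 and Cuffdiff 2.0.2 with build mm9, with annotation and filters not given in the sources used here. As the labels' protocols state, RNA came from a column kit (sorted cells) or Trizol (pancreas), and pancreas is also named with a TruSeq preparation.

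Members and lists were chosen with earlier results of these data known. Complexes follow name prefixes. Named were all isoform pairs, every member past 2 times, the extremes of each complex and the extremes of the related lists. Loci, transcript lengths and GC come from GENCODE M1 on NCBIM37, the same assembly as mm9, with the median over coding transcripts, and 84 of 85 members had 1 locus. Near-identical copies are minimap2 2.31 matches of the coding sequence outside the gene, over at least 90% of its length at 95% identity or more. Low steps of FPKM times length put 1 fragment at 1 kb at about 0.0413 FPKM in neural tube and 0.0245 FPKM in pancreas. Fragment numbers derived from them are approximate and cover counting only. The measures were tested on simulated data. Analyses used Python 3.11.15 with pandas 2.3.3.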

Additional observations from a re-analysis of the deposited data

How the results depend on the processing

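As deposited, 3 members were higher in neural tube, 37 were higher in pancreas and 40 were similar. Scaling to housekeeping genes left 18 higher in pancreas and a complex V median of -0.87. Equal totals gave 6 higher in neural tube and 12 in pancreas, a median of -0.26 for all members, and medians of -0.17, 0.0605, 0.0038, -0.275 and -0.62 for complexes I to V. Correction for length and GC content gave 1 higher in neural tube, with 15 higher in pancreas and 63 similar, with a complex V median of -0.78, and moved the log2 ratio of the Cox6a2 share, neural tube over pancreas, from 0.09 to 0.86, where both levels are near the floor. Without a filter the complex IV median was -0.23, since it then counts genes at or near 0. A limit of 1.5 times left 26 similar, and no share over all genes is given at that limit. A limit of 4 times gave 0 higher in neural tube and 4 in pancreas. Leaving out members with near-identical copies or exon overlaps, an alternative chosen after seeing the data, left 20 of 51 members higher in pancreas. The complex V median was then -0.74, above that of complex IV at -0.88, with fewer genes counted. Of 315 single-gene values for 45 genes, 241 kept their side of the limit, 74 calls were lost and 0 changed sign past it. The pseudocounts, the median ratio and the upper quartile changed no count of members by over 1.5 times. No paired analysis was possible because each tissue has 1 value per gene. The cause of these shifts was not tested.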

Other observations

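Similar lists of subunits put the members' values in context. Of 76 mitochondrial ribosomal proteins, all at 5 FPKM or more in either sample, 1 was higher in neural tube, 20 were higher in pancreas and 55 were similar, with a median difference of -0.56. Of 35 proteasome subunits at that level, 0 were higher in neural tube, 8 (22.9%) were higher in pancreas and 27 were similar. Their median was -0.55 over the 37 at 1 FPKM or more. In both lists the share higher in pancreas was thus near that of all genes. The difference followed GC content in both lists, with Pearson's r across genes of 0.62 for the mitochondrial ribosome and 0.59 for the proteasome, as a description with no test. After correction for length and GC content the medians were -0.48 for the respiratory chain members, -0.29 for the mitochondrial ribosome and -0.06 for the proteasome. The corrected median of all genes was -0.08.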
